A study of Sus scrofa with 32 samples.

Results

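The regions described here carried an H3K27me3 peak in both libraries of proliferating pig muscle satellite cells given the inhibitor SGC-CBP30 and in neither library of untreated proliferating cells. Peaks of the 8 H3K27me3 lists were joined wherever they shared at least 1 bp, which gave 28102 regions. Of these, 9240 met the rule and are called gained regions below. They were then split by whether a peak was present at 60 h in both untreated libraries and in both inhibitor libraries. The regions were chosen by the H3K27me3 peak calls at 0 h, so 0 h H3K27me3 values are given as descriptions and support nothing.

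H3K27me3 is the trimethyl mark on lysine 27 of histone H3 and is laid down by Polycomb repressive complex 2 (PRC2), whose catalytic subunits are EZH1 and EZH2. It covers silent developmental genes, often as broad domains over their promoters, and in muscle stem cells it is known from genes of other lineages and from late muscle genes. The same lysine can be acetylated instead (H3K27ac) by CBP and EP300, whose bromodomains SGC-CBP30 binds, and H3K4me3 marks active or poised promoters. A promoter that holds both H3K4me3 and H3K27me3 is called bivalent.

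The study profiled these 3 marks by CUT&Tag, in which an antibody directs a transposase to cut and tag DNA beside the mark, in satellite cells from pig muscle, which are that tissue's resident stem cells. WT denotes untreated cells and CBP denotes cells given SGC-CBP30, and every condition had 2 libraries a mark. WT_0h and CBP_0h were proliferating cells, the latter after 48 h of inhibitor, and WT_60h and CBP_60h were cells after 60 h of differentiation, the latter with inhibitor in that phase too. The labels give the dose as 5 with an unclear unit, enter proliferation in the treatment field of the 60 h samples as well, and name C3H cells in RPMI beside the pig satellite cell. Nothing states that libraries were separate cultures, so a p-value here measures at most the spread between libraries, which may be technical. Where neither library of a group had a peak, that group shows no spread. A small p-value at such a region does not measure the spread between libraries.

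The lists differed greatly in length. The WT_0h H3K27me3 lists held 1338 and 2660 peaks over 1.11 and 3.12 Mb, the CBP_0h lists 19317 and 14723 peaks over 34.7 and 25.1 Mb, and the 60 h lists 6174 to 13258 peaks. Peak lists hold no read counts, and the read depth is unknown, so the part that depth or antibody yield had in the list lengths was not tested. In WT_0h, 6 of 6 satellite cell and myoblast markers had H3K4me3 within 5 kb in both libraries and 0 of 5 differentiated muscle markers did, while in WT_60h 5 of 5 of the latter did. Of 5 fibroblast markers, 3 had H3K4me3 in both WT_0h libraries, with DCN and LUM at 0, and the 4 endothelial markers were at 0. The mark was also in both WT_0h libraries at 1 of 3 adipocyte and 1 of 3 immune markers. H3K27ac was in both at 3 of 6 satellite cell and myoblast markers, with MYOD1, CDH15 and DES at 0, and at 2 of 5 fibroblast markers.

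By number, the gained regions made up most of the H3K27me3 regions seen with early inhibitor. Of the 10813 regions with a peak in both CBP_0h libraries, 85.5% were gained, 734 also had a peak in 1 WT_0h library and 839 in both. The last 2 groups, 1573 regions, are called shared regions below. Just outside the rule lay 7805 regions with a peak in the first CBP_0h library alone and 2045 in the second alone, with none in WT_0h. In a bulk profile, fewer cells with the mark and less mark per cell cannot be told apart, so absence from a WT_0h list is absence of a called peak.

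Gained regions were short and weakly called beside shared regions. Their median width was 1.51 kb (quartiles 0.894 and 2.69 kb, longest 22.95 kb) against 6.10 kb for shared regions, and together they covered 19.6 Mb. The median of the best −log10 q that the authors' peak caller gave within a gained region was 2.77 in the first CBP_0h library and 2.1 in the second, against 8.81 and 5.56 in shared regions. A −log10 q of at least 5 was reached by 10.6% of gained regions in the first library and 2.12% in the second. The number of gained regions rested on weak peaks and on list length: it was 1100 when peaks needed a −log10 q of at least 5, 330 when each list was shortened to the length of the shortest, and 17493 without the second CBP_0h library.

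Most gained regions had no matching peak after 60 h of differentiation. A peak was present in both pairs of 60 h libraries at 1093 regions (11.8%), in the WT_60h pair alone at 572 (6.19%), in the CBP_60h pair alone at 1713 (18.5%), and in neither complete pair at 5862 (63.4%). The excess of the CBP_60h pair alone was not stable: with lists of equal length the shares were 13.0% for the WT_60h pair alone and 10% for the CBP_60h pair alone, and without the second WT_60h library 13.4% and 13.3%. At 4021 regions (43.5%) no 60 h library had a peak. By library, a peak was present at 30.5% and 21.6% of gained regions in WT_60h and at 39.9% and 37.9% in CBP_60h. Both CBP_60h libraries lay above both WT_60h libraries. Shared regions kept a peak far more often, at 80.0 to 86.8% across the 4 libraries.

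**Figure D1:**
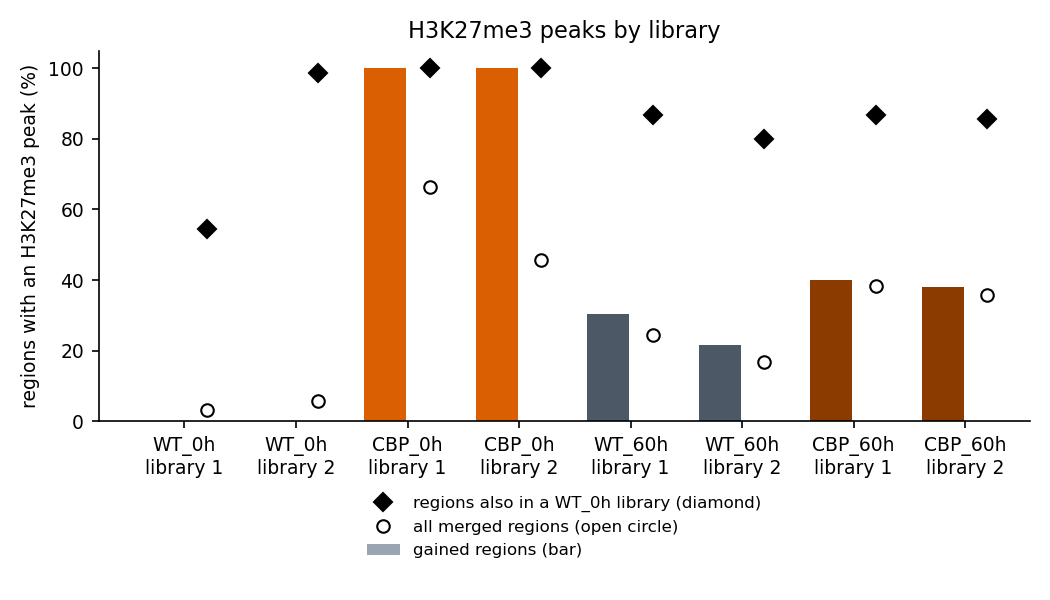
Percent of regions with an H3K27me3 peak in each of the 8 libraries: bars for the 9240 gained regions, diamonds for the 1573 shared regions, open circles for the 28102 merged regions. The rule sets the 0 h bars at 0 and 100%, and at 60 h the bars stand at 30.5 and 21.6% in WT and at 39.9 and 37.9% in CBP.

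Presence at 60 h followed the width of the merged region, to which peaks at 60 h could themselves add. Of the 2785 gained regions under 1 kb, 1.69% had a peak in all 4 libraries at 60 h and 69.9% had one in none. Of the 63 regions of 10 kb or more, 55.6% had a peak in all 4 and 3.17% in none. The median width was 3.18 kb for regions present in both 60 h pairs, 2.22 kb for the WT_60h pair alone, 2.12 kb for the CBP_60h pair alone and 1.16 kb for neither. The median length under CBP_0h peaks, averaged over both libraries, was 2.54, 1.65, 1.54 and 0.88 kb in that order. A wide region meets any peak list more readily than a narrow one, and the part of width alone was not tested. The 60 h peaks within gained regions were short: their median summed length where present was 0.616 to 0.760 kb across the 4 libraries, against 1.27 and 0.905 kb in the CBP_0h libraries.

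Gained regions lay about as near to genes as merged regions in general, and farther from them than shared regions. On placed chromosomes, 3537 of 9086 (38.9%) lay within 5 kb of either end of an annotated gene, against 35.1% of all merged regions and 75.7% of shared regions. The gene table gives no strand, so starts and ends of genes could not be told apart. The share was 57.2% for regions present in both 60 h pairs, 45.2% for the WT_60h pair alone, 39.4% for the CBP_60h pair alone and 34.8% for neither, so the largest class stood at the share of all merged regions. The median distance fell in the same order, from 9.75 kb in the last group to 2.90 kb in the first, beside 9.92 kb for all merged regions. A gene end lay inside 11.15% of gained regions and inside 52.9% of shared regions. A gene body was overlapped by 55.4% of gained regions, close to the 55.0% of all merged regions.

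**Figure D2:**
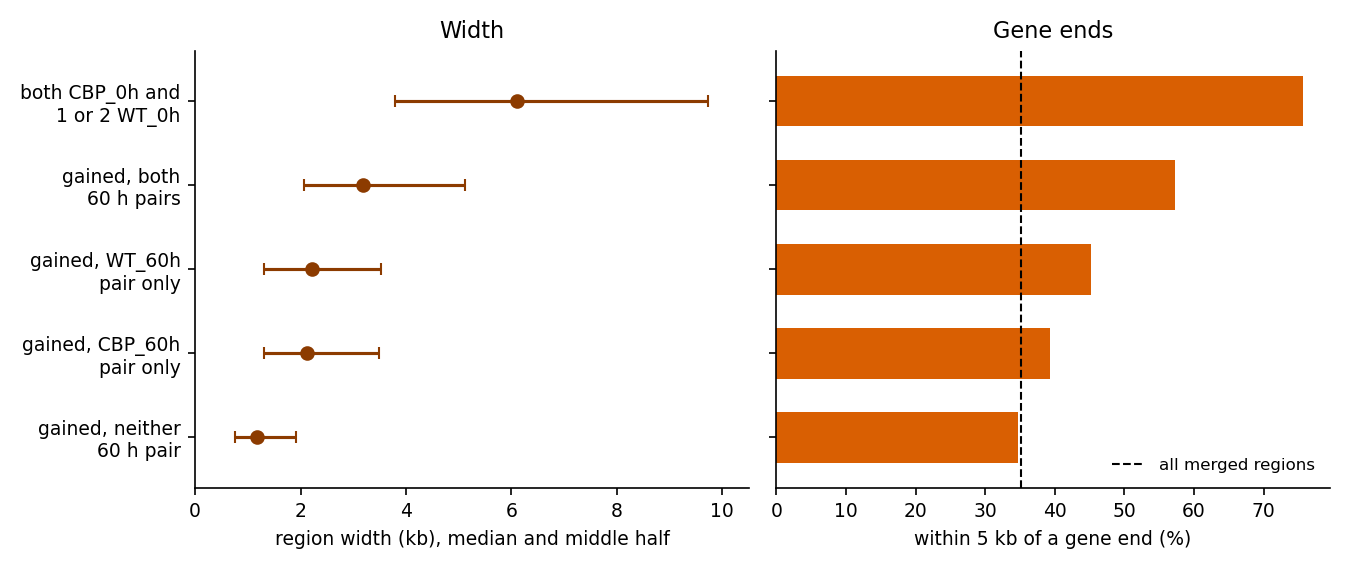
Left, region width in kb (point, median; line, quartiles) for the 4 classes of gained regions and for shared regions; right, percent of each within 5 kb of a gene end, with all merged regions as the dashed line at 35.1%. Median width runs from 1.16 kb for gained regions in neither 60 h pair to 6.10 kb for shared regions, and the gene-end share from 34.8 to 75.7%.

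Gained regions often stood side by side. Another gained region lay within 20 kb of 76.6% of them, and the median gap to the next was 3.39 kb. Joined across gaps of up to 20 kb they formed 4075 runs, of which 422 held 5 or more regions and together 34.4% of all gained regions. The longest run, at chr2:3380936-3590668, held 24 regions and the genes FGF3, FGF4 and FGF19, which encode fibroblast growth factors. A run of 17 regions at chr13:68242560-68367004 held PPARG, the master regulator of fat cell formation, and one of 17 at chr3:70904844-71041090 held DYSF, the membrane repair protein dysferlin. These runs were chosen after their counts were seen. A peak already called in WT_0h lay within 5 kb of 9.16% of gained regions and within 20 kb of 25.3%.

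The longest gained regions near a gene, up to 5 in each class, showed how unequal the 60 h states were. At AQP2, a water channel of the kidney, the region at chr5:15863420-15886370 held 22.95 and 19.6 kb of H3K27me3 in the CBP_0h libraries, 7.76 and 3.81 kb in WT_60h, and 10.7 and 10.1 kb in CBP_60h. At TNFRSF18, a receptor of T cells, chr6:63508129-63521255 held 13.1 and 11.9 kb in CBP_0h, 3.87 and 1.78 kb in WT_60h, and 4.03 and 2.68 kb in CBP_60h. At DYSF, chr3:71012226-71026732 held 13.9 and 12.3 kb in CBP_0h and 2.40 to 2.70 kb in the 4 libraries at 60 h. Each of these 3 was present in all 60 h libraries at lengths below those of CBP_0h, with WT and CBP overlapping at TNFRSF18 and DYSF. At AQP2 both CBP_60h libraries were higher, which was not called (limma adjusted p of 0.17 over all 8 libraries and 0.19 with the 60 h libraries alone).

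Among the 5 longest regions in neither pair, those at HOXB3 and TWIST1 had no peak at 60 h. The region over HOXB3, a homeobox gene of axial patterning, at chr12:24813654-24830119, held 16.5 and 14.3 kb in CBP_0h and 0 kb in each of the 4 libraries at 60 h. The region beside TWIST1, a basic helix-loop-helix factor that holds back myogenesis, at chr9:88274733-88286010, held 9.89 and 11.3 kb in CBP_0h and likewise 0 kb in each at 60 h. Both lacked a called peak in WT_0h and at 60 h, so in the deposited lists they were marked in proliferating inhibitor cells alone. The nearest WT_0h peak lay 4.48 kb from the HOXB3 region and 35.1 kb from the TWIST1 region. At GAD1, which makes the transmitter GABA, chr15:76987673-76999255 held 10.8 and 10.0 kb in CBP_0h, 0 kb in both WT_60h libraries, and 0.299 and 0.430 kb in CBP_60h.

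**Figure D3:**
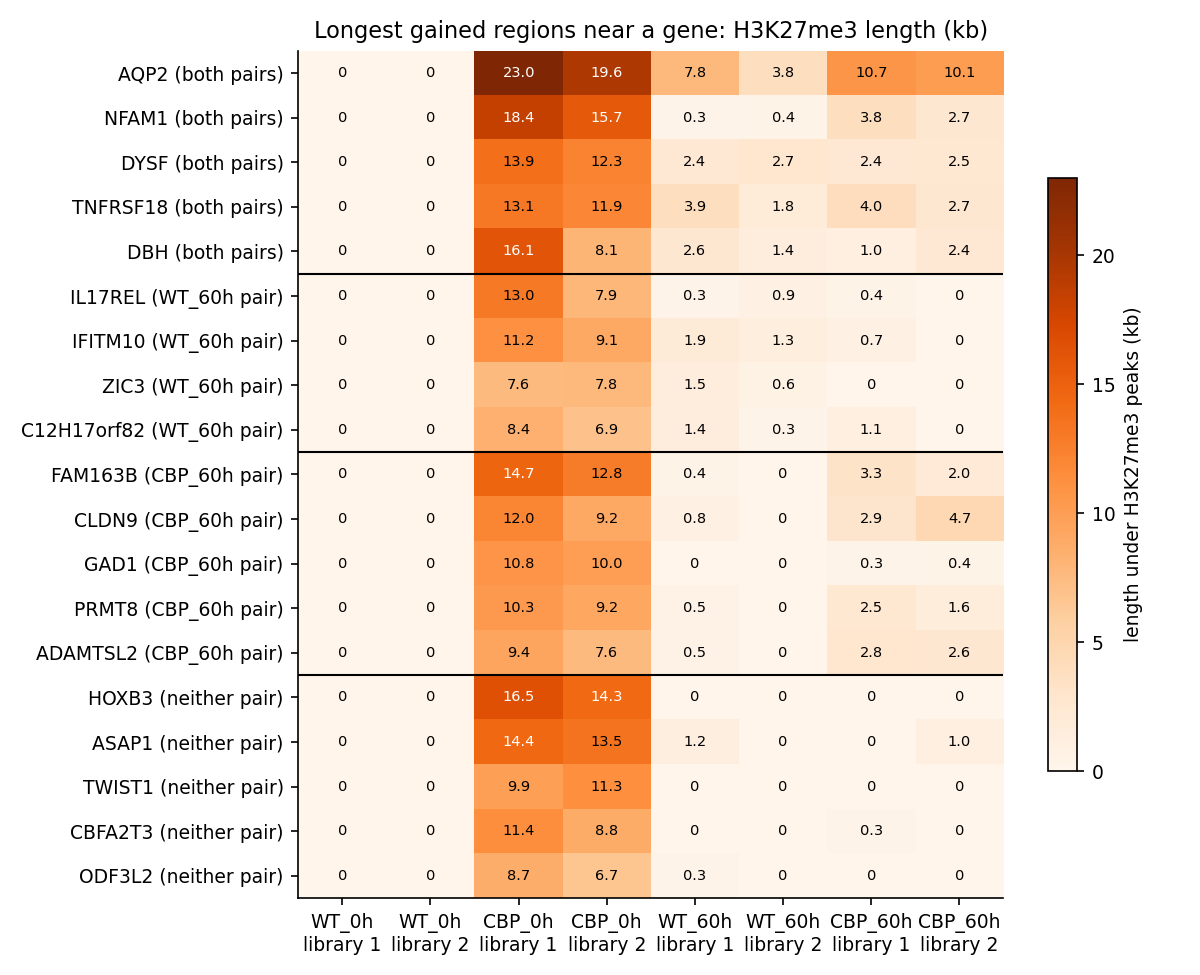
Length in kb under H3K27me3 peaks in each of the 8 libraries for up to 5 of the longest gained regions near a gene in each class of the 60 h split, named by the nearest gene. WT_0h is 0 by the rule, CBP_0h runs up to 22.95 kb at AQP2, and the 5 regions at the bottom (neither pair) hold at most 1.2 kb at 60 h.

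The genes near gained regions were described with 14 gene lists. Of all 19550 protein-coding genes on placed chromosomes, 2384 (12.2%) had a gained region within 5 kb of an end, and 254 had 3 or more. The share was highest for the neuronal list (21 of 53 genes, 39.6%), and was 35.0% for adipogenic genes (7 of 20), 32.9% for T-box, PAX, SOX, FOX and GATA factors (27 of 82), 32.5% for WNT, BMP, TGF-beta, Hedgehog and FGF signalling (26 of 80), 31.2% for homeobox genes outside the HOX clusters (29 of 93) and 30.6% for HOX genes (11 of 36). It was 4.05% for ribosomal protein genes (3 of 74), which active cells express at high levels. These shares describe the lists beside all coding genes and carry no test.

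The lists ranged widely in how many genes already had H3K27me3 in untreated cells, with no test of a difference between them. A WT_0h peak already lay within 5 kb of 76 of 93 homeobox genes and 62 of 82 T-box, PAX, SOX, FOX and GATA genes, and 22 of the 29 and 21 of the 27 genes with a gained region in these lists had one. It lay within 5 kb of 17 of 36 HOX genes, 29 of 80 signalling genes and 17 of 53 neuronal genes, and 5 of the 11, 13 of the 26 and 8 of the 21 genes with a gained region in these lists had one. Satellite cell and progenitor genes had a WT_0h peak at 1 of 30 genes and a gained region at 8 of 30. Among all coding genes, 1079 (5.52%) had a WT_0h peak, and 466 of the 2384 genes with a gained region had both.

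**Figure D4:**
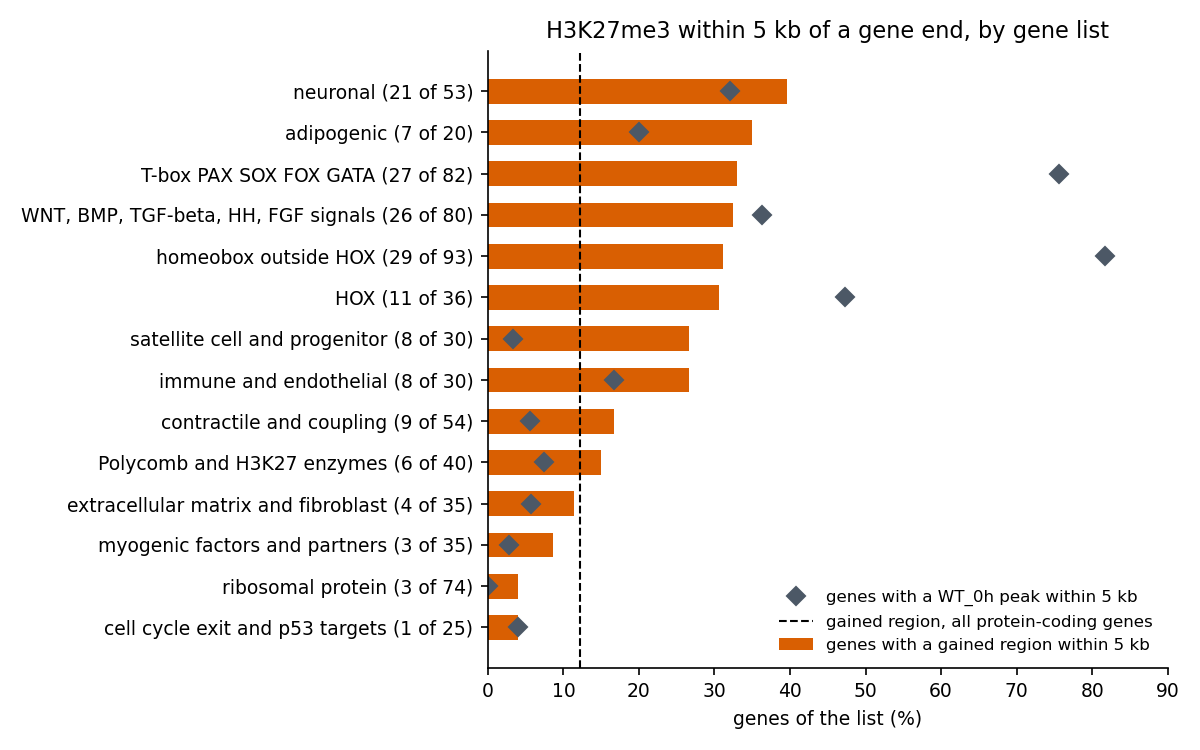
Percent of the genes of each list with a gained region within 5 kb of a gene end (bars) and with a WT_0h H3K27me3 peak there (diamonds), with the gained-region share of all protein-coding genes as the dashed line at 12.2%. Counts stand beside each name; bars run from 4% to 39.6%.

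Among patterning factors, long gained regions were present at 60 h at some genes and not at others. At TBX1, a T-box factor of the pharyngeal arches, chr14:51284274-51290521 held 6.24 and 5.76 kb in CBP_0h, 5.28 and 1.69 kb in WT_60h, and 3.02 and 2.59 kb in CBP_60h. WT and CBP overlapped at 60 h at this gene. Of the 15 gained regions at HOX genes 12 were in neither complete 60 h pair, beside 1588 of 2905 within 5 kb of any coding gene end. No difference was tested.

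Some gained regions at neuronal and signalling genes were present at 60 h in both pairs. Of 27 gained regions at neuronal genes, 11 were present in both 60 h pairs, and of 35 at signalling genes 8 were. Of all gained regions 1093 of 9240 were, and of those within 5 kb of a coding gene end 559 of 2905. The signalling share lay near the latter, and no difference was tested. At WNT10A, a secreted WNT ligand, chr15:120939052-120943936 held 4.73 and 4.68 kb in CBP_0h, 3.71 and 1.89 kb in WT_60h, and 3.08 and 3.56 kb in CBP_60h. At ELAVL3, a neuronal RNA-binding protein, chr2:70131367-70137755 held 6.39 and 6.20 kb in CBP_0h, 2.63 and 1.54 kb in WT_60h, and 0.953 and 0.902 kb in CBP_60h. WT and CBP overlapped at 60 h at WNT10A, and at ELAVL3 both CBP_60h libraries were lower, with a limma adjusted p of 0.062 over all 8 libraries and 0.11 with the 60 h libraries alone. WNT5A, a ligand of the non-canonical WNT pathway, had 3.83 and 3.04 kb in CBP_0h and 0.371 kb in 1 of 4 libraries at 60 h.

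Among muscle lists the share of genes with a gained region was 8.57% for myogenic factors and partners, 16.7% for contractile genes and 26.7% for satellite cell and progenitor genes, beside 12.2% of all coding genes. Of 35 myogenic factors and partners 3 had one (TWIST1, DACH1 and DACH2), and PAX7, MYF5, MYF6, MYOD1 and MYOG, the core regulators, had none. The satellite cell list held PAX3, the paralogue of PAX7 in migrating muscle precursors, and CD34, a surface protein of quiescent satellite cells. At PAX3, chr15:124197135-124202444 held 5.31 and 3.41 kb in CBP_0h, 1.75 and 1.22 kb in WT_60h, and 1.32 and 2.01 kb in CBP_60h. At CD34, chr9:134911845-134915379 held 3.52 and 2.47 kb in CBP_0h, 0.754 and 0.391 kb in WT_60h, and 0 and 1.02 kb in CBP_60h. At both, the WT_60h and CBP_60h libraries overlapped and lay below CBP_0h.

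Contractile genes were reached at 9 of 54 genes (16.7%), and 14 of their 19 gained regions were in neither 60 h pair. Within 5 kb of any coding gene end 1588 of 2905 gained regions were, and no difference was tested. TNNT2, the cardiac and embryonic troponin T, had 5.59 and 2.47 kb at chr10:23748765-23754350 in CBP_0h and 0.290 kb in 1 CBP_60h library at 60 h. RYR1, the calcium release channel of skeletal muscle, had 5.58 and 3.22 kb at chr6:47329351-47334929 in CBP_0h and 0.363 kb in 1 WT_60h library. Adipogenic regulators included KLF15, with 4.75 and 3.64 kb at chr7:53890781-53895533 in CBP_0h, and CEBPA, with 2.48 and 2.71 kb at chr6:43088191-43090992. CEBPA had a peak in all 4 libraries at 60 h, from 0.741 to 1.43 kb, and KLF15 in 1 of 4.

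Genes of the Polycomb machinery themselves were reached at 6 of 40 (15%, beside 12.2% of all coding genes), among them CBX2, CBX7, RING1 and EPOP. The CBX proteins are the subunits of PRC1 that read H3K27me3. The best −log10 q given by the authors' peak caller was 11.7 and 6.22 in the CBP_0h libraries at CBX2. EZH2, EP300 and CREBBP had no gained region. Among inhibitors of the cell cycle, CDKN1C had one of 2.61 and 0.541 kb in CBP_0h and none in WT_60h or CBP_60h, and CDKN1A had none.

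At 60 h, whose peaks the rule did not use, more gained regions had an H3K27me3 peak in inhibitor cells than in untreated cells. The percent with an H3K27me3 peak was 38.9 ± 1.42 in CBP_60h and 26.1 ± 6.27 in WT_60h (SD, n = 2 libraries), a difference of 12.8 percentage points with a two-sided exact permutation p of 0.333, the smallest that 2 against 2 allows. All merged regions moved the same way, from 20.6% to 37.0%. With lists of equal length the difference over gained regions was 0.357 points. The CBP_60h lists were also longer, by 1.70-fold in peaks.

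Region by region, limma on log2(bp under peaks + 500 bp) over all 15833 tested regions called 1332 of the 9240 gained regions at an adjusted p below 0.05, 1063 higher and 269 lower in CBP_60h. This is 14.4% of gained regions, beside 20.4% of all tested regions, and nothing is read from that share, since gained regions entered the test through the CBP_0h peaks of the rule. The fit also took its spread in part from the 0 h libraries, which the rule had set to 0 kb in WT_0h. With the 4 libraries at 60 h alone, an alternative chosen after seeing the data, limma called 1361 of 3709 tested gained regions (36.7%), beside 42.2% of all 8895 tested. In the fit of all 8 libraries the higher calls were 11.5% beside 16.8%, and the lower calls 2.91% beside 3.65%. The median difference was 0 for gained regions, of which 4021 had no base at 60 h. The direction of the calls depended on scaling, with 755 higher and 535 lower after quantile scaling and 128 higher and 115 lower with lists of equal length. With peaks of −log10 q of at least 3 the test called 51. Single regions below are given with the adjusted p from the 60 h libraries alone. A region at 0 kb in both libraries of a group entered that fit only through the other group, so its adjusted p supports nothing. Regions named for the size of their change were picked among calls whose groups did not overlap, so the lack of overlap is no result.

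Regions that rose in CBP_60h without a WT_60h peak included VWA5B1 and TSPAN32. At VWA5B1, chr6:78551662-78555453 held 0 kb in both WT_60h libraries and 3.71 and 2.86 kb in CBP_60h (limma adjusted p = 0.0083). At TSPAN32, a tetraspanin of blood cells, chr2:1595644-1600305 held 0 kb in both WT_60h libraries and 2.85 and 3.19 kb in CBP_60h (adjusted p = 0.0083). At CD300LF, an immune receptor, chr12:6489800-6496731 held 0 kb in both WT_60h libraries and 3.16 and 3.61 kb in CBP_60h (adjusted p = 0.0083), a call that the fit of all 8 libraries lost without any one of the 4 at 60 h.

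These 3 were marked in CBP_60h and not in WT_60h. NFAM1, an immune receptor, was one of the longest gained regions: chr5:6331998-6350383 held 18.4 and 15.7 kb in CBP_0h, 0.339 and 0.386 kb in WT_60h, and 3.83 and 2.67 kb in CBP_60h. On the log2(bp + 500) scale it was 2.1 ± 0.23 (SE) higher in CBP_60h (limma adjusted p = 0.011). With peaks of −log10 q of at least 3 the calls at TSPAN32, CD300LF and NFAM1 were lost, and VWA5B1 could not be fitted.

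The opposite change was seen at POU4F1, a homeobox factor of sensory neurons, and at CBX2. The region over POU4F1, chr11:50729289-50736445, held 7.16 and 5.17 kb in CBP_0h, 2.88 and 2.33 kb in WT_60h, and 0.503 and 0.631 kb in CBP_60h. It fell by 1.54 on the log2(bp + 500) scale (SE 0.18, limma adjusted p = 0.012), and the neighbouring region at chr11:50721088-50726722 held 1.05 kb in each WT_60h library and 0 kb in CBP_60h (adjusted p = 0.0083). At CBX2, chr12:2566570-2569674 held 0.856 and 0.863 kb in WT_60h and 0 kb in CBP_60h (adjusted p = 0.0083). Both POU4F1 regions and the CBX2 region were lower in each CBP_60h library than in each WT_60h library. With peaks of −log10 q of at least 3 none of these 3 calls was kept.

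Further decreases were called at LINGO1, a neuronal membrane protein, and SLC2A11, a sugar transporter. LINGO1 had 2.09 and 1.31 kb in WT_60h and 0 kb in CBP_60h at chr7:57888116-57890408 (limma adjusted p = 0.014). SLC2A11 had 1.62 and 1.27 kb in WT_60h and 0 kb in CBP_60h at chr14:49846832-49851396 (adjusted p = 0.0083). With peaks of −log10 q of at least 3 neither region could be fitted.

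H3K4me3, which the rule did not use, was rare at gained regions and lower in inhibitor cells at 0 h. A peak within 1 kb was found at 340 and 326 gained regions in WT_0h (3.68 and 3.53%) and at 201 and 184 in CBP_0h (2.18 and 1.99%). Both CBP_0h libraries lay below both WT_0h libraries, by 1.52 percentage points on average (two-sided exact permutation p = 0.333). Over all merged regions the shares were 3.46% and 2.08%, and the H3K4me3 lists as a whole covered 21.9 Mb in WT_0h and 17.3 Mb in CBP_0h. At 60 h the shares were 4.82 and 4.96% in WT_60h and 4.86 and 4.68% in CBP_60h, which overlapped (exact permutation p = 0.667). Shared regions had H3K4me3 more often, at 15.9 and 15.4% in WT_0h and at 8.65 and 8.77% in CBP_0h.

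**Figure D5:**
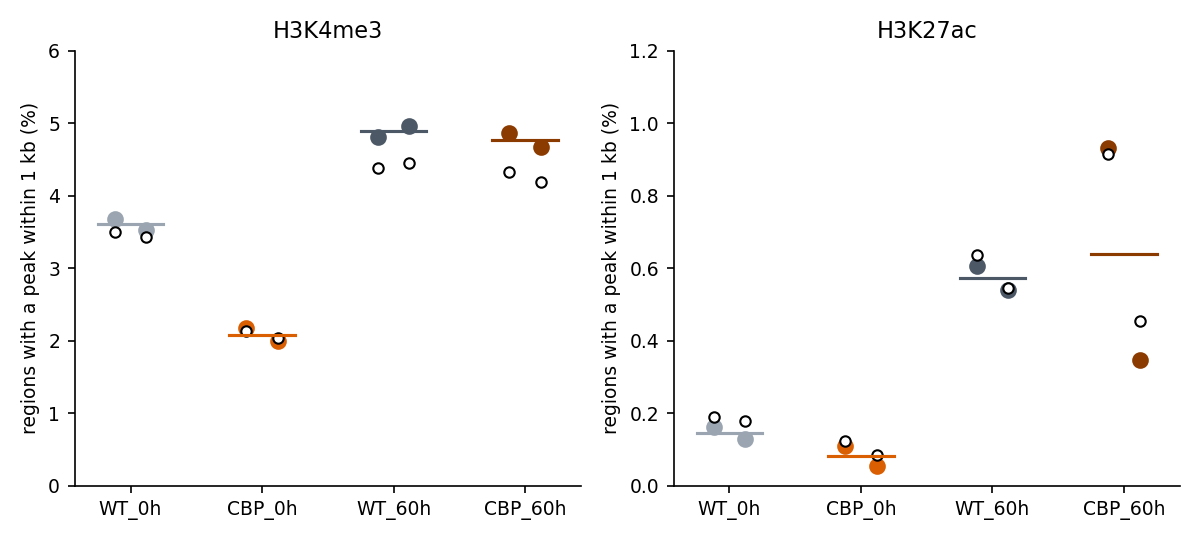
Percent of gained regions with an H3K4me3 peak (left) or an H3K27ac peak (right) within 1 kb, by condition: filled points are the 2 libraries, lines their mean, open circles all merged regions. H3K4me3 stands at 3.68 and 3.53% in WT_0h and 2.18 and 1.99% in CBP_0h, and the libraries of WT_60h and CBP_60h overlap for both marks.

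Of 295 gained regions with H3K4me3 in both WT_0h libraries, 104 had it in neither CBP_0h library and 162 in both, and 4 regions showed it in both CBP_0h libraries and neither of WT_0h. Over all merged regions, 293 of 880 with H3K4me3 in both WT_0h libraries had it in neither CBP_0h library. Of the 9240 gained regions 522 had enough H3K4me3 to be tested, and limma called 144 of them at 0 h, 140 lower and 4 higher in CBP_0h. That is 27.6%, beside 30.5% of the 1440 regions tested, with 26.8% beside 29.7% for lower calls and 0.766% beside 0.833% for higher calls. At 80 of the 144 calls a group had no base in either library. The median difference was −0.13 on the log2(bp + 500) scale, beside −0.19 for all tested regions. Quantile scaling, which moved that median of all tested regions to 0.26, gave 88 lower and 182 higher, so the direction is relative to the list lengths as deposited.

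The largest decreases at 0 h were at IGF2, HTR2A and the region beside POU4F1. At IGF2, the insulin-like growth factor that drives muscle growth, the gained region chr2:1472589-1476524 lies inside the gene. It held 2.42 and 2.42 kb of H3K4me3 in WT_0h and 0 kb in both CBP_0h libraries (limma adjusted p = 0.0018), and 3.07 and 2.81 kb in WT_60h beside 0.396 and 1.14 kb in CBP_60h (adjusted p = 0.012). The call at 60 h was lost without either WT_60h library. H3K27me3 stood there at 3.94 and 1.46 kb in CBP_0h and at 0 kb in the 4 libraries at 60 h.

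At HTR2A, a serotonin receptor, H3K4me3 at chr11:20554463-20557326 was 1.58 and 1.38 kb in WT_0h and 0 kb in CBP_0h (limma adjusted p = 0.0044). Without the WT_0h pair the HTR2A region would not have entered the test, so its adjusted p supports nothing. Beside POU4F1 H3K4me3 was 1.56 and 1.37 kb in WT_0h and 0 kb in CBP_0h (adjusted p = 0.00023), and 1.71, 1.31, 1.17 and 1.01 kb in the 2 WT_60h and 2 CBP_60h libraries. Beside POU4F1 H3K4me3 was again present in each library at 60 h. The increases at 0 h within 5 kb of a named gene and without overlap were at TUBB4A, a neuronal tubulin, from 0.758 and 0.720 to 1.17 and 1.36 kb (adjusted p = 0.0034), and RIPPLY2, a regulator of somite formation, from 0 kb to 0.229 and 0.404 kb (adjusted p = 0.0046). The RIPPLY2 region held H3K4me3 in the CBP_0h pair alone. It entered the test only through that pair, so its adjusted p supports nothing.

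By list, H3K4me3 at 0 h was called lower at 5 of the 6 tested regions of HOX genes, at 9 of 14 of other homeobox genes, and at 4 of 4 of T-box, PAX, SOX, FOX and GATA genes, with none higher in these lists. Lower calls were 140 of 522 over all tested gained regions (26.8%), beside 29.7% of all 1440 tested. The lists hold few tested regions, and no difference was tested. The lists' median differences were −0.59, −0.58 and −1.11, beside −0.13 over all tested gained regions. With quantile scaling the calls were 1 lower for HOX genes, 4 lower and 2 higher for other homeobox genes, and 2 lower for the third list, with medians of −0.13, −0.23 and −0.66 beside 0.34 over all tested gained regions. That scaling gave 88 lower and 182 higher over the 522, beside 276 lower and 502 higher over the 1440. At HOXB3 H3K4me3 went from 0.917 and 1.25 kb in WT_0h to 0.439 and 0.405 kb in CBP_0h (limma adjusted p = 0.0063). At TWIST1, in the longer of its regions, it went from 1.14 and 1.25 kb to 0.350 and 0 kb (adjusted p = 0.010). At GAD1 it went from 5.70 and 5.71 kb to 2.58 and 2.69 kb (adjusted p = 0.0027), with both WT_0h libraries above both CBP_0h libraries at each of the 3. Quantile scaling ended these calls (adjusted p = 0.21 at HOXB3, 0.058 at TWIST1 and 0.059 at GAD1), and the TWIST1 call was also lost without either WT_0h library.

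At 60 h limma called H3K4me3 at 184 of the 522 gained regions, 78 higher and 106 lower in CBP_60h, which is 35.2% beside 31.1% of all tested regions. At 104 of these 184 calls a group had no base in either library. Without the first WT_60h library limma called 117 of 466 tested, 73 higher and 44 lower. Regions with the mark in the WT_60h pair alone had then left the test. The largest decreases were at NPPC, PLCXD3 and FAT3. NPPC, which encodes C-type natriuretic peptide, had 1.89 and 1.30 kb in WT_60h and 0 kb in CBP_60h (limma adjusted p = 0.00019). FAT3, a giant cadherin, had 1.38 and 1.30 kb in WT_60h and 0 kb in CBP_60h (adjusted p = 1.8e-05), and PLCXD3 had 1.32 and 1.51 kb in WT_60h and 0 kb in CBP_60h (adjusted p = 0.0012). All 3 lacked the mark in both CBP_60h libraries. The NPPC region held H3K4me3 in the WT_60h pair alone. It entered the test only through that pair, so its adjusted p supports nothing.

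Among the largest increases at 60 h were those at TUBB4A and TSPAN31. TUBB4A had 0 kb in WT_60h and 1.23 and 1.19 kb in CBP_60h (limma adjusted p = 2.0e-05). TSPAN31 had 0 and 0.483 kb in WT_60h and 1.35 and 2.16 kb in CBP_60h (adjusted p = 0.020), a call lost without the second CBP_60h library. Without the CBP_60h pair the TSPAN31 region would not have entered the test, so its adjusted p supports nothing. At CDKN1C, H3K4me3 within 1 kb of the gained region was absent at 0 h and stood at 1.30 and 1.40 kb in WT_60h and 0.761 and 0.389 kb in CBP_60h (limma adjusted p = 0.018), a call lost without either WT_60h library.

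H3K27ac was rare at gained regions and at merged regions in general. A peak within 1 kb was found at 15 and 12 of them in WT_0h, 10 and 5 in CBP_0h, 56 and 50 in WT_60h, and 86 and 32 in CBP_60h. The mean shares were 0.146%, 0.0812%, 0.574% and 0.639% in that order, beside 0.183%, 0.105%, 0.591% and 0.685% of all merged regions. The 2 CBP_60h libraries differed by more than WT_60h from CBP_60h, so no difference at 60 h was detectable (exact permutation p = 1), and at 0 h the exact permutation p was 0.333. The H3K27ac lists as a whole covered 12.3 Mb in WT_0h and 5.53 Mb in CBP_0h.

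Of 61 gained regions with enough H3K27ac to be tested, limma called 3 at 0 h (4.92%, beside 9.52% of all 210 regions tested), 2 higher and 1 lower. At 60 h it called 32, 13 higher and 19 lower, or 52.5% beside 49.5%. A group had no base in either library at all 3 calls at 0 h and at 30 of the 32 at 60 h. The split at 60 h changed with the libraries left out. Without the first or second WT_60h library, 41 were tested each time, with 14 higher and 2 lower or 12 higher and 1 lower. Without the first or second CBP_60h library, 45 and 49 were tested, with 1 higher and 26 lower or 1 higher and 20 lower. A region with the mark in 1 pair alone left the test once a library of that pair was dropped. These refits therefore cannot show whether the calls rest on single libraries. The decrease at 0 h was at TRIM9, a neuronal ubiquitin ligase, with 0.306 and 0.353 kb in WT_0h and 0 kb in CBP_0h (adjusted p = 8.6e-05). At 60 h SRL, the calcium-binding protein sarcalumenin of muscle, had 1.52 and 1.26 kb of H3K27ac in WT_60h and 0 kb in CBP_60h (adjusted p = 2.0e-05). The TRIM9 region held H3K27ac in the WT_0h pair alone and the SRL region in the WT_60h pair alone. Each entered the test only through that pair, so its adjusted p supports nothing.

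HOXD8, with 0.796 and 0.732 kb in WT_60h, and KCNH2, a cardiac potassium channel, with 0.820 and 0.648 kb, also had 0 kb in CBP_60h (limma adjusted p = 8.4e-06 and 6.5e-05). Increases were called at REEP1 and EBF1. REEP1 had 0 kb in WT_60h and 0.478 and 0.541 kb in CBP_60h (adjusted p = 2.0e-05), and EBF1, a factor of B cell and adipocyte formation, 0 kb in WT_60h and 0.337 and 0.308 kb in CBP_60h (adjusted p = 0.00014). VAX2, an eye homeobox factor, had 0 kb in WT_60h and 0.415 and 0.399 kb in CBP_60h (adjusted p = 0.041), a call lost without either CBP_0h library, without any one of the libraries at 60 h, and with quantile scaling. HOXD8, KCNH2, REEP1, EBF1 and VAX2 would not have entered the test without the pair that was high, so their adjusted p-values support nothing.

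The effect of the inhibitor at 60 h was also set against that at 0 h. For H3K4me3 limma called a difference between the effects at 252 of the 522 tested gained regions, beside 44.4% of all tested regions, with 169 more positive at 60 h (32.4% beside 31.1%) and 83 more negative (15.9% beside 13.3%). For H3K27ac it called 33 of 61, beside 53.3%, with 14 more positive (22.95% beside 22.4%) and 19 more negative (31.1% beside 31%). The shares of gained regions lay near those of all tested regions.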

How the data were processed

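CUT&Tag of H3K27me3, H3K4me3 and H3K27ac was analysed from 24 deposited broad peak lists, 2 libraries per mark and condition; the 8 IgG samples were not analysed here. Peaks were called with MACS2 2.1.0 on Sscrofa11.1, per the submitters' processing notes; read depth, caller options, control and aligner: not given in the sources used here. Each deposited peak has the authors' display score, fold enrichment (ratio), −log10 p and −log10 q.

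H3K27me3 peaks were merged at 1 bp of overlap. Genes came from a RefSeq table of Sscrofa11.1 without strand, and distances are to the nearer gene end. Of 706 list genes 687 were found. Regions and lists were chosen with earlier results of these data known.

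The base pairs under peaks per region and library (within 1 kb for H3K4me3 and H3K27ac) were tested with limma 3.58.1 on log2(bp + 500) in regions with at least 200 bp in at least 2 of the 8 libraries of a mark, with Benjamini-Hochberg adjustment over all tested regions at 0.05. The test was run on simulated data first. A log2 difference understates changes at short lengths, and with a group at 0 bp it depends on the 500 bp added, so lengths are given. Shares per library were compared by two-sided exact permutation tests, which cannot go below 0.333.

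Named regions were the 5 longest per class near a named gene, the 3 largest called increases and decreases per contrast without overlap of groups, and up to 4 per gene list; some of these are not reported here. Alternatives covered the constant, filter, scaling, flank, peak threshold, list length, replicate block and each library left out.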

Additional observations from a re-analysis of the deposited data

Results flagged for a closer look

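The inhibitor effect on H3K4me3 and H3K27ac was compared between 0 h and 60 h with limma (the effect at 60 h minus that at 0 h, on log2(bp + 500)). It differed at 252 of 522 tested gained regions for H3K4me3, beside 44.4% of all tested regions, and at 33 of 61 for H3K27ac, beside 53.3%. At 60 h a group held 0 bp in both libraries at 121 of the 252 H3K4me3 calls and at 33 H3K27ac calls. There the size depends on the constant added, and that group shows no spread. No library at 60 h held the mark at 24 of the H3K4me3 calls and 3 of the H3K27ac calls.

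For H3K4me3 the difference was 1.66 at TSPAN31, 1.64 at POU4F1, 1.55 at HTR2A and 1.26 at TUBB4A. It was −2.05 at NPPC, −1.46 at FAT3, −0.97 at PLCXD3 and −0.70 at RIPPLY2. At POU4F1 and HTR2A a decrease at 0 h lay behind it, and at NPPC and FAT3 a decrease at 60 h. The calls at HTR2A, PLCXD3, RIPPLY2 and TSPAN31 were lost without single libraries. NPPC, RIPPLY2, HTR2A and TSPAN31 would not have entered the test without the pair that was high, so their calls support nothing.

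For H3K27ac the difference was 1.25 at VAX2, 1.01 at REEP1, 0.92 at EBF1 and 0.73 at TRIM9. It was −1.92 at SRL, −1.34 at HOXD8 and −1.30 at KCNH2. The VAX2 call was lost without either CBP_0h library and without any one of the libraries at 60 h. Without the pair that was high, none of the regions named here for H3K27ac would have entered the test, so their calls support nothing.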

How the results depend on the processing

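The peak lists limit these results: depth is unknown, most peaks were weak, and 2 libraries a group cannot reach a permutation p below 0.333. The cause of each change below was not tested.

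Instead of 9240 gained regions there were 1100 at a −log10 q of at least 5, 2359 at 3, 330 with lists of equal length, and 9259 to 17493 with 1 library left out. The share present in both 60 h pairs was 14.4% with peaks merged within 1 kb, 1.06% at a −log10 q of at least 3, 5.15% with equal lists, and 7.30 to 17.1% with 1 library left out. For the WT_60h pair alone it was 2.59% at 3, 13.0% with equal lists and 4.46 to 13.4% with 1 left out. For the CBP_60h pair alone it was 20.6% merged, 5.93% at 3, 10% with equal lists and 13.3 to 26.3% with 1 left out. For neither pair it was 58.4% merged, 90.4% at 3, 71.8% with equal lists and 55.7 to 74.2% with 1 left out. Near a gene end lay 28.1% within 2.5 kb, 54.1% within 10 kb and 32.0% for coding genes.

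The H3K27ac difference at 0 h of −0.0649 points became 0.0162 with equal lists. That at 60 h of 0.0649 became −0.395 within 5 kb and −0.0974 when −log10 q had to reach 5, and ran from −0.227 (without the first CBP_60h library) to 0.357 with 1 left out.

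Gained regions called for H3K27ac at 0 h numbered 49 within 5 kb, 1 at a −log10 q of at least 5 and 1 to 6 with 1 library left out; at 60 h 121, 14, 10 with equal lists and 13 to 31; for the difference between times 148, 16, 12 and 15 to 31. For H3K27me3 at 60 h they numbered 243 with equal lists, 51 at 3, and 923 to 1669. For H3K4me3 they numbered 270 with quantile scaling, 94 with equal lists, 354 within 5 kb and 117 to 151 at 0 h, 339 within 5 kb and 117 to 178 at 60 h, and 532 within 5 kb and 177 to 220 for the difference, which quantile scaling split into 104 higher and 131 lower. The 4 libraries at 60 h alone, added after seeing the data, gave 1361 H3K27me3 calls among 3709 tested gained regions.

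The difference between the first and second library in WT was correlated with that in CBP, after removal of each median (−0.062 to 0.097). A shift of a whole library is removed by this step. Many regions also had no peak, in WT_0h H3K27me3 by the rule at gained regions. Whether same-numbered libraries were paired therefore cannot be told. With the replicate block the calls were 3, 31 and 32 for H3K27ac, 1190 for H3K27me3 and 137, 174 and 237 for H3K4me3. Of 1229 alternatives for 79 single-region results, 1036 matched the main fit in being called or not, 187 lost the call and 4 gained it. Direction was compared only for results called in the main fit. Results whose region left the test under an alternative were not counted there. With lists of equal length 53 of the 79 were counted. Quantile scaling turned H3K4me3 at 0 h to 0.00147 at DACH1 and 0.0830 at HOXD9, neither called.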
